A study of Mus musculus with 31 samples.

Results

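Vehicle-treated D10.G4.1 cells were followed from 0.8 to 12 h after treatment to ask which transcripts change over this time without the peptide under study. D10.G4.1 is a cloned line of mouse type 2 helper T (Th2) cells, the class of CD4+ T cells known for secreting IL-4, IL-5 and IL-13, and as 1 clone it stands for no other T cell population. All cultures described here received phosphate-buffered saline (PBS) and no neuromedin U (NmU), the neuropeptide given to the other cultures of the series. The 16 arrays whose titles name PBS were taken out of the 31 of the series, 4 at each of 0.8, 3, 6 and 12 h, and the other 15 arrays were of NmU-treated cells at the same times (4, 3, 4 and 4 arrays). Total RNA of each sample was hybridised to 1 array. The earliest samples were those at 0.8 h, which were the reference for the differences below. No sample of the series is from before treatment, so effects of handling or of adding PBS cannot be told apart from those of time. The labels do not say whether replicates were separate cultures, so each p-value is set against sample-to-sample spread that could be purely technical.

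As background, cultured T cells adjust their transcripts to growth factors, nutrients and oxygen, whose supply shifts as a culture runs. Cytokine receptors that use STAT5 induce Cish, a feedback inhibitor of the same receptors, and growth signals hold up Myc, a transcription factor that drives growth and division. Ddit4 (also called REDD1) is a stress-induced inhibitor of the kinase complex mTORC1 and is known to be transcribed during low oxygen, glucocorticoid exposure, amino acid shortage and loss of growth factors. Map3k8 (Tpl2 or Cot) is a kinase that passes inflammatory receptor signals to the ERK pathway.

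The PBS arrays were much alike at all 4 times. Over the 7788 probe sets with a group mean above a signal of 20.2 at any time, the correlation of log2 values between a pair of arrays of the same time lay between 0.950 and 0.979 (median 0.970, 24 pairs), and that between arrays of different times between 0.953 and 0.980 (median 0.969, 96 pairs). Of 11 T cell markers on the array, 9 passed the filter, including Cd3d, Cd3e, Cd3g and Cd4. The summed signal of all 11 lay between 5785 and 7546 on every PBS array. Sums for the other lists likewise take every marker on the array, passed or not. Thy1 and Cd5 were below the filter. Of the markers of other T cell subsets, Gzmb alone passed, with signals from 1443 to 3593.3, while Cd8a and Ifng lay at or below the floor of 5.8 on 13 and 14 of the 16 arrays. Of 18 markers of macrophages and dendritic cells 9 passed, with sums from 1496 to 2545. Among these markers the protease gene Ctss had a mean of 1510, Mpeg1 232, Itgax 90.9 and Cd14 78.3. Itgam lay at or below the floor on 16 arrays and Lyz2 on 14. Markers of B cells (5 of 13 passed, sums from 189.3 to 332.6), granulocytes and mast cells (6 of 18, 274.5 to 527.3), NK cells (3 of 7, 90.2 to 153.8), erythroid cells and platelets (4 of 9, 117.1 to 219.1) and fibroblasts (9 of 17, 551.8 to 962.2) had lower sums, which overlapped between all 4 times. In the fibroblast list the collagen gene Col1a2 was not dim, with a mean of 392 against 277 for Cd4. The median signal of an array lay between 34.4 and 43.3.

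The array PBS 3 h replicate 4 stood apart from its group. Its correlation with the mean of the rest of the PBS 3 h group was 0.966, the lowest of the 16 arrays. With the PBS 0.8 h mean, taken over more arrays, it was 0.972. A better match to another time was not particular to it: PBS 3 h replicate 1 had 0.972 with its own group and 0.978 with PBS 6 h. Among single 0.8 h arrays, PBS 3 h replicate 4 had 0.972 with replicate 1 but 0.954, 0.959 and 0.960 with the others. It held 477 probe sets at least 2-fold away from the mean of the rest of its group, against 135 to 368 on the other PBS arrays. The genes with the widest gap, picked out after their values were seen, were mostly low there: Ccng2, a cyclin-like gene linked to exit from cycling, had a signal of 83.7 against a mean of 572.3 on the other 3 arrays, the interferon-induced Gbp2 51 against 317.7, and the inhibitory receptor Ctla4 78.7 against 295.3. Results that rest on the PBS 3 h group are given with and without it.

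**Figure D1:**
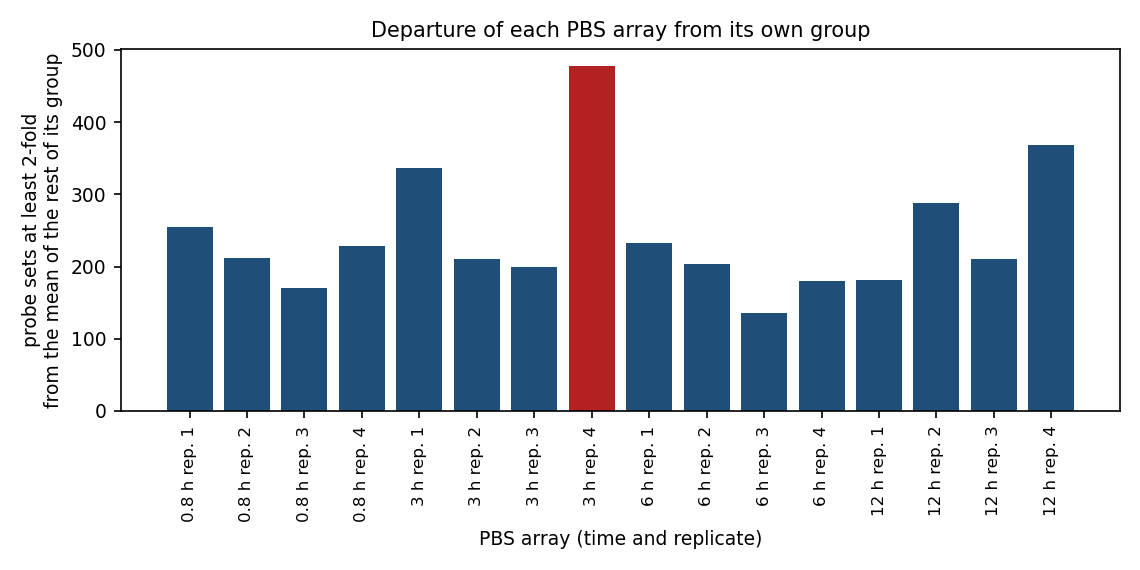
Number of probe sets (vertical axis, of 7788) at least 2-fold from the mean of the other arrays of the same group, for each of the 16 PBS arrays (horizontal axis). PBS 3 h replicate 4, in red, has 477, and the next highest, PBS 12 h replicate 4, has 368.

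Time in PBS culture moved very few transcripts past the test. Ddit4 rose 2.13-fold by 6 h, and Map3k8 fell by 3 h and was as low at 6 h. Differences are in log2 units from a linear model over the 16 PBS arrays (limma), with p-values adjusted by Benjamini-Hochberg over all 7788 probe sets and a threshold of 0.05. At 3 h against 0.8 h, 1 probe set (0.0128%) passed, that of Map3k8. At 6 h, 2 (0.0257%) passed, Ddit4 higher and Map3k8 lower. At 12 h, 0 (0%) passed in limma, with the smallest adjusted p at 0.0783 and 325 probe sets at an unadjusted p under 0.05. A test for any change over the 4 times called 2 (0.0257%), Ddit4 and Map3k8, each with an adjusted p of 0.036. This test called from 0 to 3 probe sets in the fits that left out 1 array, and neither gene held in all of them.

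**Figure D2:**
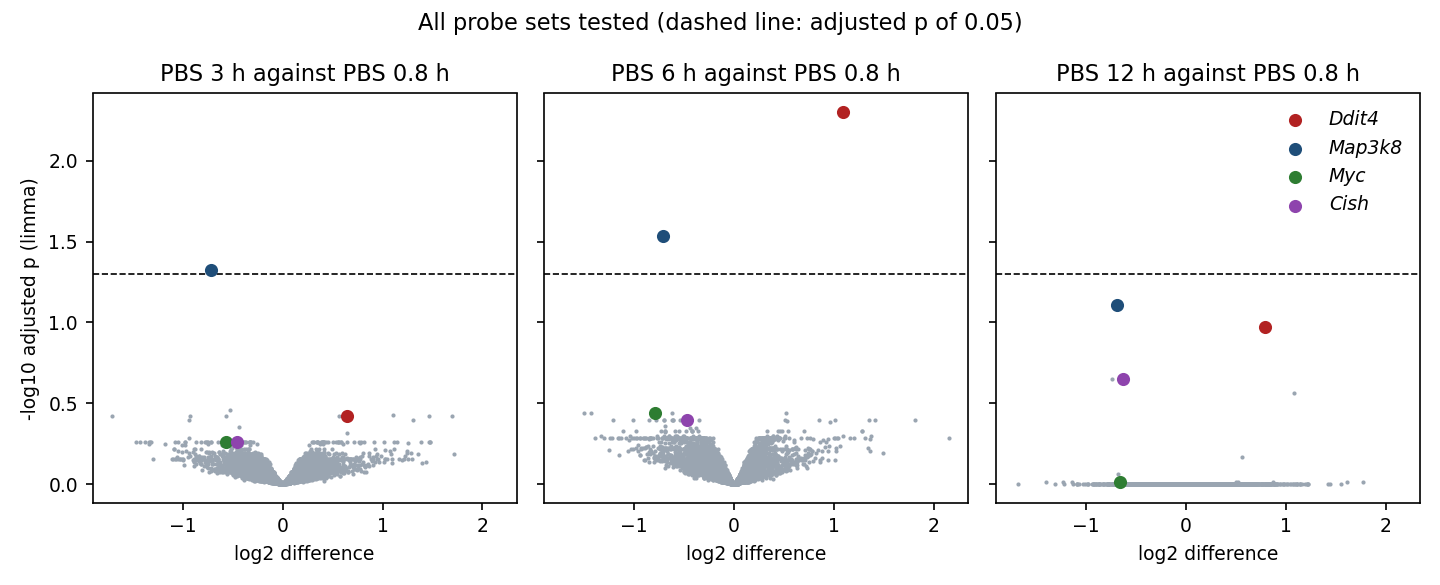
The log2 difference from PBS 0.8 h (horizontal axis) against the -log10 adjusted p from limma (vertical axis) for each of the 7788 probe sets at 3, 6 and 12 h. Points above the dashed line passed the threshold of 0.05: Map3k8 at 3 h, Ddit4 and Map3k8 at 6 h, and no probe set at 12 h.

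The precision of these comparisons bounds what could have been missed. The median standard error of a log2 difference was 0.17, and the 95% interval lay inside a 2-fold change in both directions for 87.2% of probe sets at 3 h, 87.2% at 6 h and 88.3% at 12 h. The median difference over all probe sets was -0.03, -0.03 and 0, and the lower and upper deciles were -0.33 and 0.23 at 3 h, -0.35 and 0.22 at 6 h and -0.25 and 0.25 at 12 h. At an unadjusted p under 0.05 there were 540 probe sets at 3 h (6.93%), 644 at 6 h (8.27%) and 325 at 12 h (4.17%), with 212, 218 and 178 of them higher than at 0.8 h. Between neighbouring later times 0 (0%) passed in limma, both for 6 h against 3 h (376 at an unadjusted p under 0.05, smallest adjusted p 0.978) and for 12 h against 6 h (403, smallest adjusted p 0.664).

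Ddit4 was the clearest mover. Its signals at 0.8 h were 287.6, 263.9, 287.0 and 308.2. At 3 h they were 400.7, 590.5, 433.5 and 391.9, and at 6 h 632.4, 581.9, 600.9 and 629.5. At 12 h they were 518.7, 539.7, 399.2 and 537.2. Every later PBS array thus lay above every 0.8 h array, and the 6 h arrays lay above all 3 h and 12 h arrays apart from the 590.5 of PBS 3 h replicate 2. Of all probe sets, 1.53% had all 4 arrays at 3 h above all 4 at 0.8 h, 3.27% did at 6 h and 1.72% at 12 h.

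The log2 rise of Ddit4 at 6 h was 1.09 ± 0.13 (SE, 95% interval 0.81 to 1.38), a fold of 2.13, with an adjusted p of 0.00501 in limma. At 3 h the log2 difference was 0.65 (interval 0.36 to 0.93, adjusted p 0.377) and at 12 h 0.79 (0.51 to 1.07, adjusted p 0.107), neither of which passed. The order of the means was 0.8, 3, 12 and 6 h, but neither 6 h against 3 h (0.45, adjusted p 0.978) nor 12 h against 6 h (-0.30, adjusted p 0.899) passed. Without PBS 3 h replicate 4 the difference at 6 h was again 1.09 (adjusted p 0.00292). It passed in all 27 alternative fits, with adjusted p-values from 2.76e-05 to 0.0374, whereas the difference at 12 h passed in 3 of the 27, among them the fit without PBS 3 h replicate 2 (adjusted p 0.0239).

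**Figure D3:**
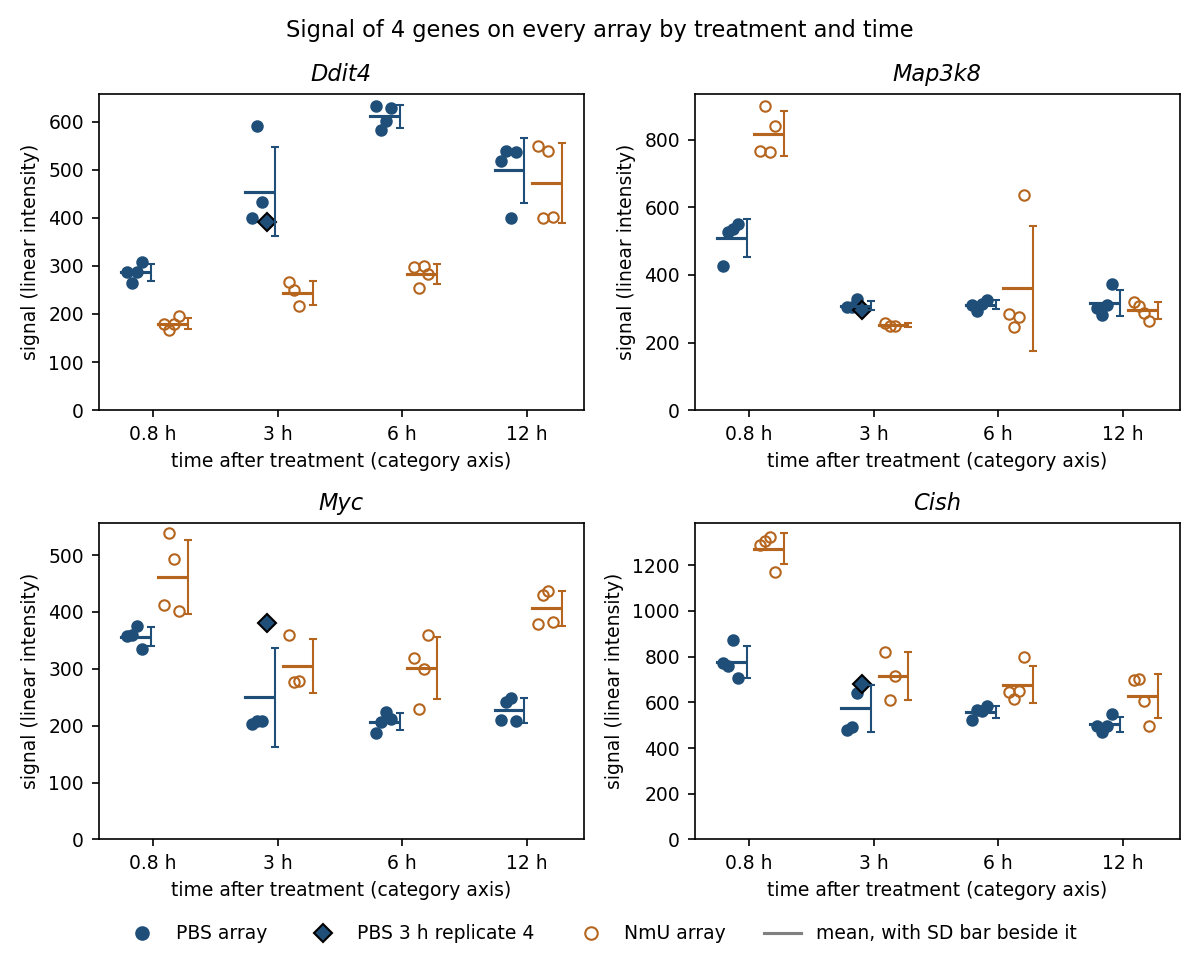
Linear signal (vertical axes, from 0) of Ddit4, Map3k8, Myc and Cish on every PBS array (filled) and NmU array (open) by time after treatment, with group means as lines and SD bars beside them. All 4 PBS arrays of Ddit4 at 6 h lie between 581.9 and 632.4, above 308.2, the highest at 0.8 h, and the diamond marks PBS 3 h replicate 4, which stands at 379.9 for Myc.

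The NmU-treated cells gave a time course of Ddit4 that shares no array with the PBS one. Its signals there were 178.3, 167.4, 179.7 and 194.9 at 0.8 h, 265.6, 250.1 and 216.4 at 3 h, 297.3, 254.8, 299.0 and 283.6 at 6 h, and 549.9, 400.3, 539.4 and 401.6 at 12 h. The gene started lower than in PBS and was highest at 12 h, where both treatments overlapped. At 6 h every NmU array lay below every PBS array of that time (581.9 to 632.4). In a limma fit of all 31 arrays, whose spread also draws on the PBS arrays, Ddit4 rose in NmU at each later time. The rises were 0.44 at 3 h, 0.65 at 6 h and 1.38 at 12 h (adjusted p 0.0436, 0.00213 and 3.45e-08). The NmU 0.8 h level already holds the early response to the peptide, which cannot be told apart from time in these rises. The change from 0.8 to 12 h was 0.59 ± 0.18 larger in NmU than in PBS, and this difference between the treatments did not pass in limma (adjusted p 0.162). Whether the change to 6 h, where Ddit4 was called in PBS, differed between the treatments was not tested.

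Map3k8 was highest in the first samples. Its PBS signals were 427.3, 525.7, 535.7 and 551.3 at 0.8 h and 304.3, 305.3, 327.6 and 297.0 at 3 h. They were 311.3, 294.0, 314.9 and 325.4 at 6 h and 300.9, 282.5, 310.3 and 373.4 at 12 h. Every 0.8 h array lay above every later one, and the 3 later groups overlapped each other. Such a gap, with all 4 later arrays below all 4 at 0.8 h, was seen for 2.13% of all probe sets at 3 h, 4.25% at 6 h and 1.48% at 12 h. The gene fell by 0.72 at 3 h (interval -0.94 to -0.49, adjusted p 0.0475) and fell by 0.71 at 6 h (interval -0.93 to -0.48, adjusted p 0.0294), to 0.608 and 0.613 of its level at 0.8 h. The difference at 12 h was -0.69 (interval -0.91 to -0.46), which missed the threshold at an adjusted p of 0.0783.

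The Map3k8 difference at 3 and 6 h lay between -0.80 and -0.60 in every alternative that kept this probe set apart, but its calls were lost in most of the fits that left out 1 array. At 3 h it was called in 2 of the 16, those without PBS 0.8 h replicate 1 (adjusted p 0.0138) and without PBS 12 h replicate 4 (0.0187), and at 6 h in 4 of the 16, the same 2 (0.0142 and 0.0116) and those without PBS 3 h replicate 4 (0.0279) or PBS 12 h replicate 2 (0.0348). At 12 h it was called without PBS 0.8 h replicate 1 (0.0215) and without PBS 12 h replicate 4 (0.0207). Without PBS 3 h replicate 4 the adjusted p at 3 h was 0.0591. In the fit of all 31 arrays it was not called (adjusted p 0.307 and 0.263). A dim second probe set of the gene, with a mean signal of 21 at 0.8 h, gave -0.17 at 3 h and -0.76 at 6 h (adjusted p 0.939 and 0.595). In NmU, the probe set that was called in PBS had signals of 767.8, 900.7, 762.4 and 841.0 at 0.8 h and fell by 1.70 at 3 h (adjusted p 1.12e-06) and fell by 1.47 at 12 h (adjusted p 2.93e-06). Later NmU arrays lay between 247.0 and 320.3 except NmU 6 h replicate 4 at 637.9. The change to 12 h did not pass as different from that in PBS (-0.78 ± 0.25, adjusted p 0.209).

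The calls of Myc turned on how 1 array was used. Its signals were 357.2, 359.5, 374.9 and 334.6 at 0.8 h, and 202.6, 208.6, 208.9 and 379.9 at 3 h, the last being PBS 3 h replicate 4. At 6 h they were 187.1, 205.8, 223.2 and 212.0, and at 12 h 209.9, 242.4, 249.2 and 207.5. All arrays after 0.8 h except that one were below the 0.8 h range. A gap of that kind was seen for 4.25% of all probe sets at 6 h and 1.48% at 12 h. The Myc log2 differences of -0.57, -0.79 and -0.65 at 3, 6 and 12 h did not pass in limma with all 16 arrays (adjusted p 0.546, 0.361 and 0.975). Without PBS 3 h replicate 4, Myc passed at all 3 times: it fell by 0.79 at 3 h, fell by 0.79 at 6 h and fell by 0.65 at 12 h (adjusted p 0.00898, 0.00292 and 0.0301). The number of called probe sets was then 1 (0.0128%), 3 (0.0385%) and 1 (0.0128%). At 6 and 12 h the differences themselves were the same with and without this array, while the standard error at 6 h went from 0.17 to 0.09. Array quality weights in limma also gave calls of Myc at 3 and 6 h (adjusted p 0.037 and 0.0093). So did limma on only the 6 and 0.8 h groups at 6 h (adjusted p 0.0406). On PBS 3 h replicate 4, Ddit4 (391.9) and Map3k8 (297.0) stood near the other 3 h arrays.

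Cish, whose product restrains STAT5 signalling, had signals of 771.8, 761.1, 871.6 and 705.0 at 0.8 h, and 478.8, 493.7, 640.1 and 681.8 at 3 h. At 6 h they were 522.0, 564.7, 560.9 and 584.8, and at 12 h 498.4, 471.7, 495.9 and 547.1. All 12 later arrays were below the 0.8 h arrays. Of all probe sets, 2.13% had all 4 arrays at 3 h below all 4 at 0.8 h, 4.25% did at 6 h and 1.48% at 12 h. The Cish differences of -0.45, -0.48 and -0.63 did not pass in limma (adjusted p 0.546, 0.402 and 0.223), nor did they in any of the 27 alternative fits. Among the other feedback regulators, Socs1 had a difference of -0.33 and the ERK phosphatase gene Dusp6 one of -0.43 at 3 h (both adjusted p 0.546). Of 10 measured members of that list, 0 passed at any time, and the median difference was -0.07, -0.17 and -0.15 at 3, 6 and 12 h.

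The genes whose log2 values followed Ddit4 most closely over the 16 PBS arrays were Tiparp (r = 0.82), 2210016F16Rik (0.80), Atp5g2 (0.76), Ibsp (0.74) and Klf10 (0.74). These correlations are descriptions over arrays that share their time groups. Tiparp encodes a mono-ADP-ribosyltransferase induced through the aryl hydrocarbon receptor. It had signals of 107.6, 84.1, 111.7 and 116.8 at 0.8 h and 344.7, 206.6, 234.4 and 296.6 at 6 h, groups that did not overlap. Such a gap, with the 6 h arrays above, was seen for 3.27% of all probe sets. The Tiparp difference was 1.35 ± 0.32 at 6 h (limma, adjusted p 0.402) and 0.57 at 12 h, where the signals were 144.4, 134.8, 146.2 and 203.7. Klf10, a transcriptional repressor known as an early response gene of TGF-beta, had means of 146.2 ± 24.8, 215.4 ± 28.9, 206.5 ± 15.4 and 194.7 ± 9.3 (SD, n = 4) at the successive times, and its differences of 0.56, 0.51 and 0.43 did not pass (adjusted p 0.377, 0.402 and 0.999), nor did those of its second probe set (0.37, 0.43 and 0.35).

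Gene lists chosen for culture time were then read as groups. The 42 lists hold 907 genes, of which 593 were measured, and with all 16 arrays Ddit4 was the only one called in any of the 3 comparisons with 0.8 h. Myc was called as well without PBS 3 h replicate 4. For the 38 lists with at least 5 measured genes, the median difference ran from -0.26 to 0.37 at 3 h, from -0.36 to 0.15 at 6 h and from -0.31 to 0.15 at 12 h.

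Targets of the hypoxia-inducible factors (HIF), the transcription factors that accumulate in low oxygen, had the highest list median at 3 h. With all 16 arrays, all 18 measured members, Ddit4 among them, had a positive difference at 3 h. Their median was 0.37 against -0.03 for all probe sets. Of the 18, 0 passed the adjusted test in limma and 9 had an unadjusted p under 0.05, where 2.72% of all probe sets did so in that direction. The number with a positive difference was 16 without PBS 3 h replicate 4, and 16 or 17 without any other 3 h array. At 6 h the median was 0.12 with 1 member called (Ddit4), and at 12 h it was 0.15 with 0 called. The mean of the list on each 3 h array, relative to 0.8 h, was 0.26, 0.74, 0.43 and 0.11, against 0.22 to 0.25 on the 6 h arrays and 0.10 to 0.37 on the 12 h arrays.

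The 3 h arrays were uneven in these genes. Egln1, the oxygen sensor that marks HIF for degradation, had signals of 475.8, 803.5, 529.8 and 389.5 at 3 h against 378.8, 352.1, 346.6 and 384.9 at 0.8 h, a difference of 0.54 (adjusted p 0.546). Bnip3, a mitophagy receptor gene, had 518.6, 863.7, 598.4 and 416.2 at 3 h against 358.7, 425.1, 477.0 and 481.5. Pdk1, whose product inhibits pyruvate dehydrogenase, had 102.0, 188.8, 127.5 and 127.8 against 106.3, 101.1, 77.7 and 79.4 (difference 0.56, adjusted p 0.546). In each of these the high array was PBS 3 h replicate 2. Without that array the list median at 3 h was 0.23 with 3 members higher at an unadjusted p under 0.05 (2.93% of all probe sets), and Egln1 differed by 0.34. Without PBS 3 h replicate 4 they were 0.56 with 11 members (4.19% of all probe sets), and 0.69 for Egln1 (adjusted p 0.188). The list thus had a positive median whichever 3 h array was left out, with 0 members called.

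Glycolytic enzymes, many of which HIF induces, had medians of 0.20, 0.10 and 0.01 at the successive times, with 0 of 14 measured called. At 3 h, 6 of the 14 were higher at an unadjusted p under 0.05 (2.72% of all probe sets). Without PBS 3 h replicate 4 the number was again 6, with a median of 0.23, and without PBS 3 h replicate 2 it was 1 (2.93% of all probe sets), with a median of 0.19. Pgam1 had a mean signal of 1122 ± 41.0 at 0.8 h and 1437 ± 210 at 3 h (SD, n = 4; difference 0.35, adjusted p 0.546), and Pgk1 differed by 0.41 at 3 h and -0.03 at 12 h. Of the other lists that hold Ddit4, those of FoxO targets (18 measured), glucocorticoid targets (12) and amino acid response genes (21), no second member passed. With all 16 arrays their medians lay between -0.07 and 0.06 at every time. The FoxO median at 3 h was 0.18 without PBS 3 h replicate 4 in place of 0.06, and 7 of the 18 members were higher at an unadjusted p under 0.05 (4.19% of all probe sets) in place of 2 (2.72%). The amino acid response median at 3 h then turned from 0.03 to -0.09, and the glucocorticoid median went from 0 to 0.06. Mt1, a metallothionein gene that glucocorticoids induce, differed by 0.40 at 3 h and 0.10 at 12 h, and Asns, the asparagine synthetase gene that ATF4 induces, by 0.17 at 3 h and 0.00 at 12 h.

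**Figure D4:**
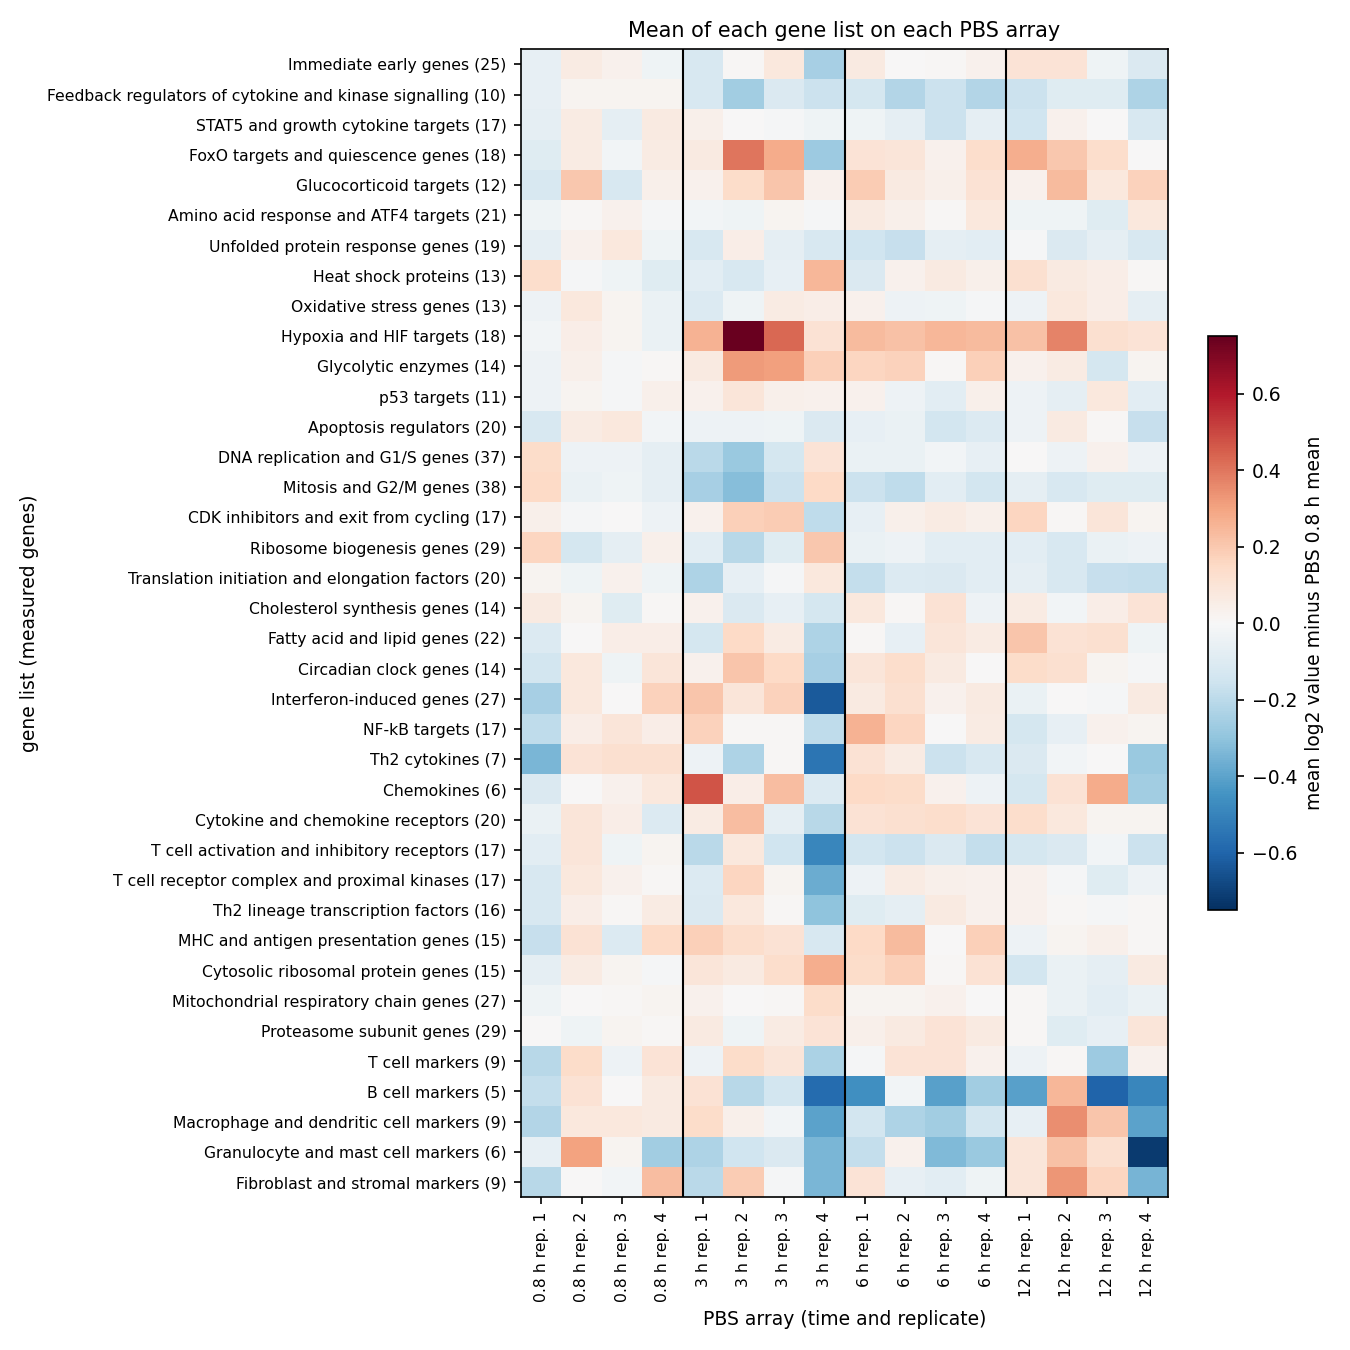
Mean log2 value of the measured genes of each list (rows, number of genes in brackets) on each PBS array (columns), minus the mean of the 4 PBS 0.8 h arrays. The HIF list is highest on PBS 3 h replicate 2 (0.74), and PBS 3 h replicate 4 is low for interferon-induced genes (-0.63) and Th2 cytokines (-0.55).

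Cell division genes had low medians at 3 h that moved with single arrays. In the list of mitosis genes, 0 of 38 measured passed at any time, and the median difference was -0.12, -0.11 and -0.10 at 3, 6 and 12 h. In that of DNA replication, 0 of 37 passed, with medians of -0.13, -0.03 and -0.05. The list means of mitosis genes on the 3 h arrays were -0.25, -0.32, -0.16 and, on replicate 4, 0.15. On the 0.8 h arrays they were 0.15, -0.05, -0.03 and -0.07, so replicate 1 of the reference group stood as high. Those of DNA replication genes at 0.8 h were 0.14, -0.04, -0.04 and -0.07. Every median given here includes that reference array. Rrm2, a subunit of the enzyme that makes deoxynucleotides, had signals of 843.4, 725.9, 883.5 and 1210.7 at 3 h, the last again replicate 4, against 1221.3, 1211.3, 1104.5 and 1049.1 at 0.8 h. Without PBS 3 h replicate 4 the median of the mitosis list at 3 h was -0.19. Then 16 members had an unadjusted p under 0.05 in limma with a lower level (5.24% of all probe sets), against 4 with all arrays (4.21%). Of 37 DNA replication genes, 10 were then lower by that measure, with a median of -0.23, against 3 with all arrays. Leaving out PBS 3 h replicate 2 moved both lists the other way: 1 mitosis gene and 0 DNA replication genes were lower at an unadjusted p under 0.05 (5.43% of all probe sets), with medians of -0.06 and -0.07. In limma 0 members of either list were called in these fits. Ribosome biogenesis genes (29 measured) had medians of -0.06, -0.07 and -0.10 (-0.13 at 3 h without PBS 3 h replicate 4), and Gnl3, a member of that list, differed by -0.42 at 6 h (adjusted p 0.47).

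In the list of unfolded protein response genes, 0 of 19 measured passed. Pdia3, a disulfide isomerase of the endoplasmic reticulum, had the third lowest p at 6 h. Its signals were 781.1, 964.8, 906.4 and 1025.3 at 0.8 h and 418.8, 558.4, 602.3 and 499.5 at 6 h, without overlap. Such a gap, with the 6 h arrays below, was seen for 4.25% of all probe sets. The Pdia3 difference of -0.83 ± 0.17 did not pass in limma (adjusted p 0.361). The chaperone gene Hspa5 differed by -0.28 at 6 h, on signals from 2807.3 to 3930, and Herpud1 by -0.31. Heat shock proteins (13 measured, median -0.03, 0.00 and 0.11) and oxidative stress genes (13 measured, -0.01, 0.03 and 0.03) had 0 called.

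None of the Th2 cytokines passed the test at any time. Il4 had mean signals of 529.1 ± 44.3, 504.5 ± 76.5, 560.0 ± 39.6 and 520.0 ± 26.9 (SD, n = 4) at 0.8, 3, 6 and 12 h, and its differences lay between -0.08 and 0.08, with an interval of -0.26 to 0.22 at 12 h. Il13 had means of 1459, 1378, 1535 and 1342, and Il10 1612, 1343, 1605 and 1546. Il5 was dim, with signals from 40.7 to 74.6 on all 16 arrays, and Il9 ran from 11.6 to 54.0. Il6 differed by -0.38 at 3 h (adjusted p 0.654), on signals of 787.0, 877.0, 1049.4 and 736.7 against 1111.9, 1107.3, 1080.2 and 1155.7. Il3 varied widely at 3 h, from 18.7 on replicate 4 to 143.9. That made 0 called of 7 measured cytokines, whose median difference at 3 h was -0.26 with all arrays and -0.13 without replicate 4. Among the 0.8 h arrays, replicate 1 had a cytokine list mean of -0.34, against 0.1 to 0.12 on the others. Gata3, the transcription factor that specifies Th2 cells, had means of 2290 ± 161, 1900 ± 116, 2135 ± 219 and 2253 ± 176. Its difference at 3 h was -0.27 (adjusted p 0.643). Cd3g, a chain of the T cell receptor complex, differed by 0.29, 0.30 and 0.11, none of which passed.

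Among immediate early genes, the transcripts that first answer a stimulus, 0 of 25 measured passed in PBS with all 16 arrays, and the median was -0.10, -0.10 and 0.02. Myc, which is 1 of these members, was called lower at each of the 3 times without PBS 3 h replicate 4. Zfp36, which encodes an RNA-destabilising protein, had signals between 96.6 and 200.3 on all 16 arrays. Of interferon-induced genes 0 of 27 passed, with medians of -0.03, 0.11 and 0.00. The direction at 3 h moved with PBS 3 h replicate 4, where the list mean was -0.63. Without it the median was 0.17, and 21 of the 27 had a positive difference in place of 11. The reference array PBS 0.8 h replicate 1, kept in both, was also low for this list (-0.25, against 0.08, 0 and 0.17 on the other 0.8 h arrays).

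The time change in PBS was set against that in NmU within the fit of 31 arrays. From 0.8 to 12 h, the change differed between the treatments at 65 probe sets (0.835%), 25 with a higher and 40 with a lower change in NmU. In the same fit the number of probe sets called against 0.8 h was 0 (0%), 1 (0.0128%) and 1 (0.0128%) in PBS at 3, 6 and 12 h. In NmU it was 671 (8.62%), 268 (3.44%) and 234 (3.00%). The counts in NmU hold the early response to the peptide at 0.8 h as well as time, and these cannot be told apart there. Klf10, at 66.7, 58.6, 74.3 and 87.8 in NmU at 0.8 h and 221.0, 224.8, 233.2 and 150.7 at 12 h, had a change 1.10 ± 0.21 larger than in PBS (adjusted p 0.00559). Neither Ddit4, Map3k8, Myc (0.48, adjusted p 0.627) nor Cish (-0.41, adjusted p 0.522) passed this test.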

How the data were processed

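The deposited table gave 1 linear intensity per probe set and array, scaled before deposit. The scanner and the summary of probes into probe sets were not given. Trimmed means (2% off each end) differed from that of the median array by at most 0.00691%, so the intensities were used as deposited by the authors, and changes are relative to the other transcripts of an array. Of 12422 probe sets without controls, 10833 had 1 gene symbol, 396 several and 1193 none; symbols were checked by Entrez number (10817 matched, RefSeq GRCm38.p6). Values under 5.8 (20th percentile) were raised to it, log2 was taken, and probe sets with a mean over 20.2 (40th percentile) in any PBS group were kept (7788, 5817 genes). The floor understates changes of dim genes. The probe set with the highest mean stood for a gene. limma 3.58.1 (R 4.3.3; 12 residual, 2.84 prior degrees of freedom) was tested on simulated data. Named were Ddit4, up to 12 called genes per direction, up to 4 genes of each list with the lowest F test p, Th2 cytokines and the 5 genes most correlated with Ddit4. The samples, lists and tests were chosen with earlier results of these data known. Alternatives covered scaling, floor, filter, arrays used, weights and probe set choice. The number of arrays limits the precision.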

Additional observations from a re-analysis of the deposited data

Results flagged for a closer look

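For 32 genes with values in the text, each of the 4 PBS groups was searched for an array far from the other 3 by Dixon's ratio. Chance alone marks about 1 group in 20. Over the 4 groups of all 32 genes 7 were marked, which is near that share, so the marks below are descriptions only. Myc was high on PBS 3 h replicate 4 (379.9, others 202.6 to 208.9). Ddit4 was low on PBS 12 h replicate 3 (399.2, others 518.7 to 539.7), and Il13 on PBS 0.8 h replicate 1 (1078.8, others 1529.6 to 1629). At 6 h, Socs1 was low on replicate 4 (796.8, others 913.6 to 928), and both Dusp6 (1294.8, others 1653.1 to 1723.7) and Il10 (1429.9, others 1651.3 to 1682.7) on replicate 3, while Il5 was high on replicate 1 (63.5, others 46.9 to 49).

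The change from 0.8 to 12 h differed between NmU and PBS by the test of the difference itself (limma, adjusted p under 0.05) for 5 of these 32 genes. Over all probe sets the share was 0.835%, and the genes were named with earlier results of these data known. In log2 units the change was more positive in NmU for Il5 (2.73) and Klf10 (1.10), and more negative for Zfp36 (-1.93), Il6 (-0.74) and Il4 (-0.62). The NmU 0.8 h level already holds the early response to the peptide, so these values do not give the difference between treatments at 12 h.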

How the results depend on the processing

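The rise of Ddit4 at 6 h passed in all 27 alternatives, with log2 differences from 1.05 to 1.20. Other counts of called probe sets were small enough to move with most choices. In the fit of all 31 arrays 0, 1 and 1 were called at 3, 6 and 12 h (Ddit4 at both later times) and 1 for any change over time. With only the 2 groups compared, and with quantile normalisation, 0 were called at 3 h. The fit of only the 2 groups called 3 at 6 h (Ddit4, Myc and Ndel1). Arrays scaled to a common median gave 0 at 3 h, 1 at 6 h and 0 for any change. Without the filter, the dim Reg3b was added, with 2 called at 3 h, 2 at 12 h, 1 for 6 h against 3 h and 1 for 12 h against 6 h. An intensity trend in the variance gave 2 at 12 h. Array quality weights, lowest for PBS 3 h replicate 4 (0.31), gave 5 at 3 h, 4 at 6 h, 1 at 12 h and 3 genes in the lists. Averaging all probe sets of a gene gave 0 at 3 h and 1 at 6 h. The cause of each move was not tested.

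With 1 array left out, the count ranged from 0 to 1 at 3 h, 1 to 3 at 6 h, 0 to 1 at 12 h, 0 to 0 for 6 h against 3 h and for 12 h against 6 h, 0 to 3 for any change, 46 to 85 for the NmU and PBS difference, and 1 to 2 genes in the lists. Equal replicate numbers did not pair the arrays: the correlation of deviations between same-numbered arrays ran from -0.22 to 0.29 (24 pairs, 5 over 0.1), and 5 of 16 arrays correlated best with their own number. With the replicate number as a block, 0 were called at 3 h, 1 at 6 h (Ddit4), 0 for any change and 62 for the treatment difference. Dim genes are limited by their signal over background.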
